A study of Arabidopsis thaliana with 26 samples.

Results

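The 7 positions from P178 to P184, called the gap here, lie between the 3′ ends P176 and P177 and those at P185 to P187. All are ends of RNAs from the 5′ ETS, the external spacer at the start of the rRNA precursor. Numbering starts at the first base of the P-P′ fragment, and P178 means an RNA that ends with the base of that number. Members were chosen by position alone as reads without any added nucleotide (untailed) whose 3′ end lies from P178 to P184. They made up 12601 of 173861 untailed reads (7.25%), and 7 of 389 positions at which any untailed read ended. P176 and P177 together held 22166 untailed reads and P185 to P187 held 25482, of which P187 held only 398. The gap was not empty of frequent ends, as P178 held 7145 untailed reads, beside 8995 at P177 and 8106 at P185.

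In plants, the 5′ ETS is cut from the rRNA precursor and the released P-P′ fragment is degraded from its 3′ end in the nucleolus. Degradation involves the RNA exosome, whose core complex, Exo9, has kept in plants a phosphorolytic activity carried by RRP41, which uses phosphate in place of water to release nucleotides. RRP44 and RRP6L2 are hydrolytic exoribonucleases that work with Exo9, and MTR4 is an RNA helicase needed for exosome functions in the nucleolus. Where an enzyme slows or stops, an intermediate with a defined 3′ end remains, and terminal nucleotidyltransferases can add adenosines to such ends.

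Rosette leaves of 13 genotypes were profiled by 3′RACE-seq with 2 biological replicates each, 26 libraries in all, and each library came from a pool of plants. Exo9 was inactive in 10 libraries, namely *mtr4 rrp41* RRP41Pi-Cat-, *RRP44KD rrp6L2 rrp41* RRP41Pi-Cat-, *rrp6L2 rrp41* RRP41Pi-Cat-, *rrp41* RRP41Pi- and *rrp41* RRP41Pi-Cat-. It was active in 16 libraries, namely *mtr4 rrp41* RRP41WT, *mtr4*, *RRP44KD rrp6L2 rrp41* RRP41WT, *RRP44KD rrp6L2*, *rrp6L2 rrp41* RRP41WT, *rrp6L2*, *rrp41* RRP41WT and Col-0. RRP41Pi- is changed in residues that hold phosphate, RRP41Pi-Cat- also in catalytic residues, and RRP41WT is unchanged. All 3 transgenes were tagged, driven by the gene's own upstream sequence and carried by plants that lack endogenous RRP41, so inactive and RRP41WT plants alike carry the *rrp41* null mutation and a transgene. The *rrp6L2* and *mtr4* lines carry T-DNA insertions, and RRP44KD is an artificial microRNA expressed from a promoter that is active in mesophyll cells, so other leaf cells may retain RRP44. All plants were of the Col-0 accession. The labels give 16 h of light and 8 h of darkness, whereas the methods of the study describe equal periods for these plants, and the age is not given in the labels. The reads cover a single transcript, so neither the leaf identity nor the genotypes could be checked against marker genes.

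The reference letters around the 7 positions are shown because each end is defined by them, and because the letter that follows an end decides which added nucleotides can be seen. Capitals mark P178 to P184 in the first sequence, the last nucleotide of the RNA in the 4 named ends, and in the last sequence the base that is exchanged in T137C, a difference among reads described with the results.
P163 to P191: catcgaactacctacCACCTATccttctc
P178: cgcgcatcgaactacctacC
P179: gcgcatcgaactacctaccA
P183: atcgaactacctaccacctA
P186: gaactacctaccacctatcC
P127 to P147: atcggatagcTagtgttcgta
In the assembly TAIR10.1, P178 to P184 lie on the plus strand at chr3:14197292-14197298 and chr2:3321-3327. No annotated gene or exon covers either site, and at both the annotated 18S rRNA gene (AT3G41768 and AT2G01010) starts 379 nt downstream of P184. Another identical stretch, chr2:7191338-7191344, lies in an exon of the annotated gene AT2G16586 without an annotated rRNA gene downstream. The sites were found by an identical match from P140 to P200. Letters in that stretch cannot assign a read to 1 of these copies, and letters outside it were not compared.

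A library held between 1621 and 23152 reads with a median of 7592, and 3 libraries held under 2000 reads (Col-0 replicate 2 and both replicates of *rrp41* RRP41Pi-). Untailed reads were between 62.5% and 98.1% of a library. *rrp41* RRP41Pi- contributed only 15 and 48 untailed reads from P178 to P184. Among the active *rrp6L2* libraries, replicate 2 of *rrp6L2 rrp41* RRP41WT stood apart with the highest share of these ends. All values below are percentages of the untailed reads of a library, so a share can fall because other ends became more frequent, and a difference in the number of cells of a type or in RNA per cell cannot be told apart from it. Each interval covers counting error only.

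P178 was the main end of the gap. It accounted for 7145 of the 12601 reads (56.7%), P179 for 18.4% and P183 for 9.52%, while P180 (5.86%), P182 (3.78%), P181 (3.59%) and P184 (2.15%) were minor. P178 was the most frequent of the 7 ends in 18 of 18 libraries of the *mtr4*, *RRP44KD rrp6L2* and *rrp6L2* backgrounds, but only in 3 of 8 libraries of the Col-0 background, where P183 was the most frequent in 3. P178 exceeded P177 in 6 of 26 libraries, and it exceeded P179 in 25.

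The share of untailed reads ending from P178 to P184 followed the background. It was 8.03% and 8.86% in *mtr4 rrp41* RRP41Pi-Cat-, 7.16% and 10.4% in *RRP44KD rrp6L2 rrp41* RRP41Pi-Cat-, and 6.51% and 11.1% in *rrp6L2 rrp41* RRP41Pi-Cat-. In the same backgrounds with active Exo9 it was 9.48% and 7.08% in *mtr4 rrp41* RRP41WT, 8.81% and 7.28% in *mtr4*, 8.40% and 10.5% in *RRP44KD rrp6L2 rrp41* RRP41WT, 8.51% and 8.51% in *RRP44KD rrp6L2*, 8.41% and 11.5% in *rrp6L2 rrp41* RRP41WT, and 7.95% and 8.30% in *rrp6L2*. All 18 of these libraries were above the 8 libraries of the Col-0 background, which had 0.964% and 3.09% in *rrp41* RRP41Pi-, 1.49% and 2.37% in *rrp41* RRP41Pi-Cat-, 1.88% and 2.97% in *rrp41* RRP41WT and 2.25% and 4.44% in Col-0. The 95% Wilson interval reached from 0.585% to 1.58% for the lowest library and from 10.7% to 12.3% for the highest.

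**Figure D1:**
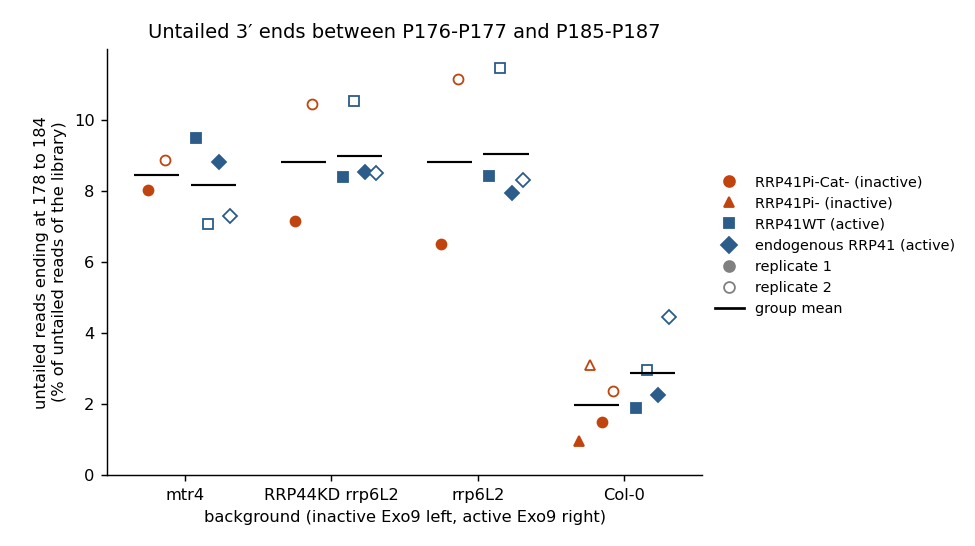
Percentage of untailed reads that ended from P178 to P184 (y axis) in each of 26 libraries, by background and state of Exo9 (x axis), with filled symbols for replicate 1, open symbols for replicate 2 and lines for group means. The Col-0 background lies at 4.44% or below and all other libraries lie at 6.51% or above.

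To ask how loss of each factor acted on these ends while Exo9 was active, 4 libraries of each mutant background were compared with 4 of its control background. The share was 9.03% ± 1.63 in the *rrp6L2* background and 2.88% ± 1.13 in the Col-0 background (SD, n = 4 each), a 3.13-fold difference (exact two-sided permutation test, p = 0.0286, the smallest that 70 relabelings allow with groups that do not overlap). It was 8.16% ± 1.17 in the *mtr4* background, 2.83-fold that of Col-0 (p = 0.0286 in the same exact test). Adjusted over the 9 tests on these ends, both p-values became 0.0643. Within replicate 1, *rrp6L2* exceeded Col-0 by 6.11 percentage points and within replicate 2 by 6.18, and *mtr4* exceeded Col-0 by 7.08 and 3.48. Without *rrp6L2 rrp41* RRP41WT replicate 2, the lowest difference among the libraries left out in turn, *rrp6L2* was 5.34 points above Col-0. Adding RRP44KD to *rrp6L2* gave 8.99% ± 1.03 in *RRP44KD rrp6L2*, against 9.03% in *rrp6L2*. This difference of -0.0437 points was smaller than the SD of either group of 4 libraries (exact permutation test, p = 0.971). It was 0.278 within replicate 1 and -0.365 within replicate 2.

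Among the 7 positions, P178 carried most of the difference to Col-0. With active Exo9 it was 3.99%, 4.36%, 5.98% and 5.999% in the *mtr4* background and 4.13%, 4.35%, 4.56% and 7.85% in the *rrp6L2* background, against 0.566%, 0.699%, 0.920% and 1.09% in the Col-0 background. The groups did not overlap, and the means differed 6.20-fold for *mtr4* and 6.37-fold for *rrp6L2*. The neighbours just upstream were above Col-0 without overlap as well, P176 with 10.6% in *mtr4* and 9.49% in *rrp6L2*, against 5.36% in Col-0, and P177 with 6.87% in *mtr4* and 7.65% in *rrp6L2*, against 2.18% in Col-0 (means of 4 libraries). P178 made up 80.8% of the difference between *mtr4* and Col-0 and 71.6% of that between *rrp6L2* and Col-0. P179 (1.64% ± 0.0877 in *mtr4*, 1.27% ± 0.472 in *rrp6L2* and 0.503% ± 0.208 in Col-0) and P180 (0.442% ± 0.0932, 0.332% ± 0.0933 and 0.0762% ± 0.0451 in the same order; SD, n = 4 each) also did not overlap with Col-0. Thus 3 of 7 positions were above Col-0 in every *rrp6L2* library and 3 of 7 in every *mtr4* library, while 14.8% and 23% of the 61 positions from 140 to 200 were. None of the 7 was below Col-0 in every *rrp6L2* library (6.56% of the 61), and P183, described next, was below in every *mtr4* library (11.5% of the 61). The share of all 61 positions without overlap in either direction was 21.3% for *rrp6L2* and 34.4% for *mtr4*. No position of the 61 passed a Benjamini-Hochberg threshold of 0.05 in these exact permutation tests, with 13 positions for *rrp6L2* and 21 for *mtr4* at an unadjusted p under 0.05. The smallest p that 70 relabelings of this exact test allow is 0.0286, so a position could pass only if most of the 61 reached it. When any of the 4 Col-0 background libraries was left out, P179 of *rrp6L2* no longer passed 0.05 (exact permutation test, p = 0.0571 each). The remaining libraries still did not overlap, and leaving out any active *rrp6L2* library instead kept p at 0.0286 in the same exact test.

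P183 was higher than both P182 and P184 in 21 of 26 libraries. With active Exo9 it was 0.127%, 0.244%, 0.419% and 0.697% in *RRP44KD rrp6L2*, against 0.837%, 1.71%, 1.80% and 2.09% in *rrp6L2*. No library overlapped, and the mean of *RRP44KD rrp6L2* was 0.231-fold that of *rrp6L2* (0.372% ± 0.248 and 1.61% ± 0.540, SD, n = 4 each; exact permutation test, p = 0.0286). The difference was -1.72 points within replicate 1 and -0.761 within replicate 2. P182 was lower in the same comparison, with 0.0945% ± 0.0575 in *RRP44KD rrp6L2* and 0.284% ± 0.101 in *rrp6L2* and no overlap. P182 and P183 were 2 of 7 positions, while 24.6% of the 61 positions were below in every library and 39.3% did not overlap in either direction. No position reached a Benjamini-Hochberg adjusted p of 0.05, with 24 at an unadjusted p under 0.05. As in the comparisons with Col-0, a position could pass only if most of the 61 reached the smallest possible p. P178, by contrast, was 6.72% ± 0.610 in *RRP44KD rrp6L2* and 5.22% ± 1.76 in *rrp6L2* (SD, n = 4 each), which overlapped (exact permutation test, p = 0.143). Leaving out any library of *RRP44KD rrp6L2* gave p = 0.0571 for P183 and for P182 in the same exact test, with differences between -1.16 and -1.35 points at P183. The remaining libraries did not overlap here either. Without *rrp6L2 rrp41* RRP41WT replicate 2, P178 of *RRP44KD rrp6L2* exceeded that of *rrp6L2* by 2.37 points (exact permutation test, p = 0.0286).

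P183 was also low in *mtr4*, with 0.196%, 0.246%, 0.273% and 0.523%, against 0.541%, 0.615%, 0.886% and 1.71% in Col-0. The groups did not overlap, although the highest *mtr4* library and the lowest Col-0 library were close (exact permutation test, p = 0.0286). The difference was -0.194 points within replicate 1 and -1.06 within replicate 2. Without Col-0 replicate 2, which had 25 reads at P183, it shrank to -0.371 points (exact permutation test, p = 0.0571), and without any of the 4 *mtr4* libraries p was between 0.0857 and 0.114. In each of these cases the remaining libraries still did not overlap. When tailed reads were counted as well, the difference was -0.31 points (exact permutation test, p = 0.343). Pooled over libraries with active Exo9, 50.2% of reads at P183 were tailed in *mtr4* and 2.04% in Col-0. In *rrp6L2*, P183 overlapped with Col-0 (1.61% and 0.937%, exact permutation test, p = 0.114). Beyond the gap, P185 and P186 of *mtr4* were below Col-0 without overlap as well, with means of 2.84% and 5.07%, against 5.92% and 11.7%.

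**Figure D2:**
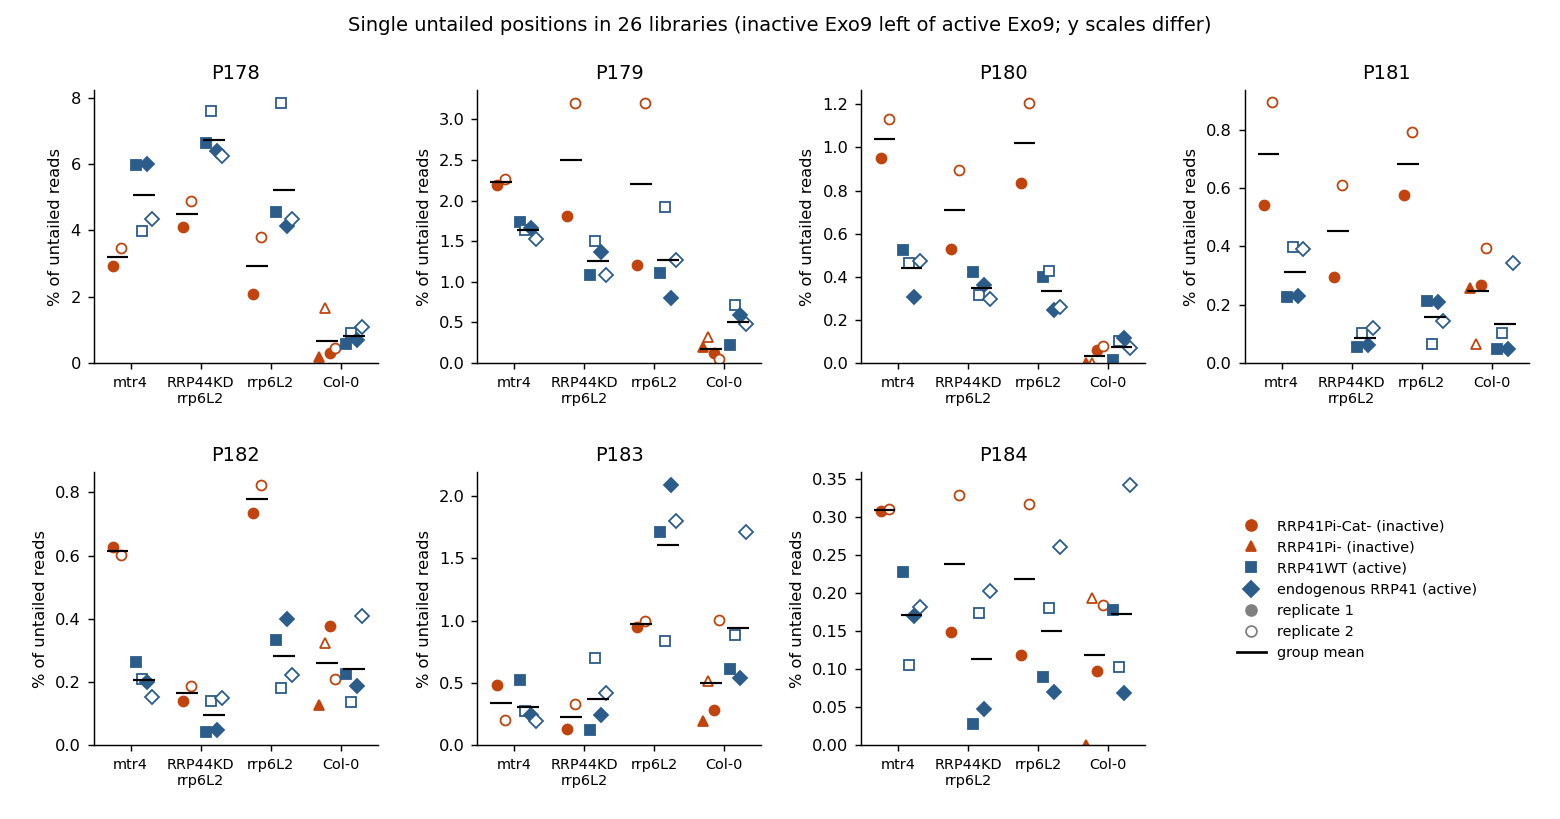
Percentage of untailed reads at each of the 7 positions (y axes, scales differ) in 26 libraries by background (x axes), with inactive Exo9 left of active Exo9, filled symbols for replicate 1, open symbols for replicate 2 and lines for means. P178 is above 2% in all libraries of the mutant backgrounds, and P183 is highest in *rrp6L2* with active Exo9, where the mean is 1.61%.

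Inactivation of Exo9 did not detectably change the total of the 7 positions. Over 4 backgrounds, inactive minus active Exo9 was -0.254 points (exact permutation test within backgrounds, p = 0.674, 236250 relabelings), and the difference was 0.283 in *mtr4*, -0.183 in *RRP44KD rrp6L2*, -0.211 in *rrp6L2* and -0.903 in Col-0. In the Col-0 background the share was 1.98% ± 0.942 with inactive and 2.88% ± 1.13 with active Exo9 (SD, n = 4 each; exact permutation test, p = 0.286). The sign differed between the replicates, which are plants grown at different times. Within replicate 1, inactive Exo9 was lower by 1.23 points on average over 4 backgrounds (-1.23, exact permutation test, p = 0.00617, the smallest that 162 relabelings allow), and within replicate 2 it was higher by 0.724 points (exact permutation test, p = 0.333). Changes of single libraries relative to active Exo9 of the same background and replicate were negative in 5 of 5 libraries of replicate 1. In replicate 2 they were negative in 2 of 2 libraries of the Col-0 background and positive in 3 of 3 libraries of the mutant backgrounds. Whether the change in the Col-0 background differed from that in the other 3 backgrounds depended on what was counted. The difference was -0.867 points for the 7 positions (exact permutation test, p = 0.290), but -2.66 points over P179 to P183 alone (exact permutation test, p = 0.00952) and -1.97 points with tailed reads counted (exact permutation test, p = 0.0381). RRP41WT plants and plants with endogenous RRP41 differed by 0.517 points over 4 backgrounds (exact permutation test, p = 0.427), less than the spread between replicates.

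The distribution within the 7 positions did change. Of 61 positions from 140 to 200 tested over 4 backgrounds with adjustment over all 61, 50.8% passed a Benjamini-Hochberg threshold of 0.05 in the exact permutation test, 23% higher and 27.9% lower with inactive Exo9. Of the 7 positions, 4 were higher (P179 to P182), 1 was lower (P178) and 2 did not pass (P183 and P184), so 5 of 7 calls stand beside a background in which 50.8% of positions were called. The median difference was 0.248 points over the 7 positions and -0.0174 over all 61.

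P178 fell with inactive Exo9. It was 2.92% and 3.47% in *mtr4 rrp41* RRP41Pi-Cat-, against 3.99% to 5.999% in *mtr4* with active Exo9. It was 4.11% and 4.89% in *RRP44KD rrp6L2 rrp41* RRP41Pi-Cat-, against 6.24% to 7.60% with active Exo9, and 2.08% and 3.79% in *rrp6L2 rrp41* RRP41Pi-Cat-, against 4.13% to 7.85% with active Exo9. In these 3 backgrounds no inactive library overlapped with the active ones, and the ratio of means was 0.629, 0.670 and 0.562 in *mtr4*, *RRP44KD rrp6L2* and *rrp6L2*. In the Col-0 background inactive Exo9 had 0.193%, 0.291%, 0.448% and 1.67%, against 0.566% to 1.09% with active Exo9, so the groups overlapped and the highest value belonged to *rrp41* RRP41Pi- replicate 2. Over 4 backgrounds the difference was -1.64 points (exact permutation test, adjusted p = 0.00259), and it was -2.03 within replicate 1 and -1.25 within replicate 2. The neighbours P176 and P177 fell too, by more, with -7.76 and -4.45 points (exact permutation test, adjusted p = 2.87e-05 each).

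The next 4 positions rose, and so did P185 and P186 beyond the gap, by 1.87 and 7.52 points over 4 backgrounds (exact permutation test, adjusted p = 0.0145 and 2.87e-05). At P186 no library overlapped in any of the 4 backgrounds. P181, 1.82-fold to 5.28-fold higher in the 4 backgrounds, had 0.541% and 0.894% in *mtr4 rrp41* RRP41Pi-Cat-, against 0.227% to 0.399% in *mtr4* with active Exo9. It had 0.296% and 0.612% in *RRP44KD rrp6L2 rrp41* RRP41Pi-Cat-, against 0.0563% to 0.122% with active Exo9, and 0.575% and 0.793% in *rrp6L2 rrp41* RRP41Pi-Cat-, against 0.0657% to 0.214% with active Exo9. No library overlapped in these 3 backgrounds, whereas in Col-0 the 4 inactive (0.0644% to 0.395%) and the 4 active libraries (0.0485% to 0.342%) did. Over 4 backgrounds P181 was 0.353 points higher (exact permutation test, adjusted p = 0.000278).

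P180 was 0.951% and 1.13% in *mtr4 rrp41* RRP41Pi-Cat-, 0.527% and 0.894% in *RRP44KD rrp6L2 rrp41* RRP41Pi-Cat-, and 0.833% and 1.21% in *rrp6L2 rrp41* RRP41Pi-Cat-, while no active library of any background exceeded 0.523%. The ratio of means was 2.36, 2.04 and 3.07 in these backgrounds. In the Col-0 background P180 was rare, with a mean of 0.0349% with inactive and 0.0762% with active Exo9. Both *rrp41* RRP41Pi- libraries had no read there, which allows a share of up to 0.193% in each. The difference over 4 backgrounds was 0.402 points (exact permutation test, adjusted p = 0.00112). P182 was 0.629% and 0.602% in *mtr4 rrp41* RRP41Pi-Cat-, against 0.154% to 0.265% with active Exo9, and 0.734% and 0.825% in *rrp6L2 rrp41* RRP41Pi-Cat-, against 0.181% to 0.401% with active Exo9. In *RRP44KD rrp6L2* it overlapped (0.164% with inactive and 0.0945% with active Exo9 on average). Over 4 backgrounds P182 was 0.248 points higher (exact permutation test, adjusted p = 0.00226).

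P179 was higher by 0.609 points over 4 backgrounds (exact permutation test, adjusted p = 0.0287), with 2.23% in inactive and 1.64% in active *mtr4*, 2.51% in inactive and 1.26% in active *RRP44KD rrp6L2*, and 2.21% in inactive and 1.27% in active *rrp6L2*. In the Col-0 background it was 0.172% ± 0.115 with inactive and 0.503% ± 0.208 with active Exo9 (SD, n = 4 each), the opposite sign, which alone did not pass (exact permutation test, p = 0.0571). P179 rested on replicate 2 of the *rrp6L2* and *RRP44KD rrp6L2* backgrounds. Without *rrp6L2 rrp41* RRP41Pi-Cat- replicate 2 (3.20%) the difference was 0.360 points (exact permutation test, adjusted p = 0.151), and without *RRP44KD rrp6L2 rrp41* RRP41Pi-Cat- replicate 2 (3.20%) it was 0.436 points (exact permutation test, adjusted p = 0.0647). Within replicate 1 it was 0.271 points and within replicate 2 it was 0.948. P180, P181 and P182 were higher within both replicates, by 0.287 and 0.517, 0.282 and 0.423, and 0.226 and 0.270 points.

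P183 was 0.976% in inactive and 1.61% in active *rrp6L2*, and 0.497% in inactive and 0.937% in active Col-0, but 0.342% in inactive and 0.309% in active *mtr4*. Over 4 backgrounds it differed by -0.296 points (exact permutation test, adjusted p = 0.0973). P184 differed by 0.0694 points (exact permutation test, adjusted p = 0.145), with at most 0.342% in any library. In the Col-0 background alone, none of the 7 positions separated inactive from active Exo9 without overlap, while 18% of the 61 positions did, 6.56% above and 11.5% below with inactive Exo9. The change of each of the 61 positions was also compared between Col-0 and the other 3 backgrounds, a test added after the values were seen. None passed the Benjamini-Hochberg threshold (lowest adjusted p = 0.0581 in the exact permutation test). At an unadjusted p under 0.05 there were 20 of the 61 positions and 6 of the 7, all but P183, with p = 0.00476 at P178, P180 and P184, the smallest that 210 relabelings of this exact test allow. The change at P178 was -0.168 points in Col-0 and -2.13 points in the other backgrounds, and at P180 it was -0.0413 and 0.549 points.

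**Figure D3:**
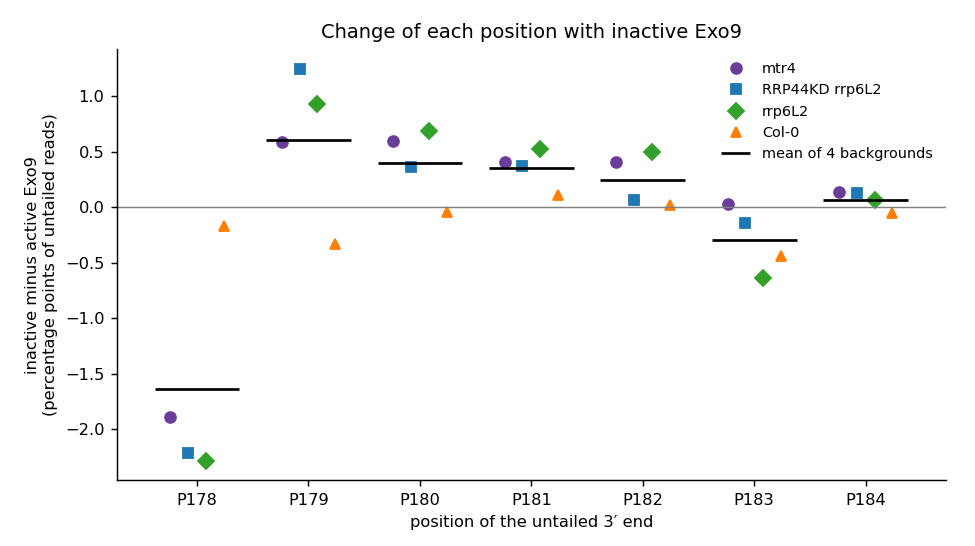
Mean share with inactive Exo9 minus mean share with active Exo9 (y axis, percentage points of untailed reads) at each of the 7 positions (x axis) in each background, with black lines for the mean of 4 backgrounds. P178 is negative in all 4 backgrounds (mean -1.64), P181 and P182 are positive in all 4 (means 0.353 and 0.248), and Col-0 lies below 0 at P179.

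As P178 fell and P179 to P182 rose, the mean end within the 7 positions moved away from P178. It was 179.5 in inactive and 178.8 in active *mtr4*, 178.9 in inactive and 178.6 in active *RRP44KD rrp6L2*, and 179.8 in inactive and 179.4 in active *rrp6L2*, but 180.7 in inactive and 180.6 in active Col-0. Over 4 backgrounds it was 0.373 nt further downstream (exact permutation test, p = 0.0199, adjusted over 9 tests p = 0.0643), 0.437 nt within replicate 1 and 0.309 nt within replicate 2. P178 made up 41.0% ± 9.54 of the 7 positions with inactive Exo9 (SD, n = 6) and 64.5% ± 9.48 with active Exo9 (SD, n = 12) in the mutant backgrounds. In the Col-0 background it made up 28.1% ± 17.4 with inactive and 29.2% ± 3.09 with active Exo9 (SD, n = 4 each), less than the spread between libraries. The shift of the mean end did not pass 0.05 without *rrp41* RRP41Pi-Cat- replicate 2 (0.306 nt, exact permutation test, p = 0.0543) or without *rrp6L2 rrp41* RRP41Pi-Cat- replicate 1 (0.327 nt, p = 0.0668 in the same exact test).

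Part of the reads carry C in place of the T of the reference (T137C, counted from the start of the P-P′ fragment). Among untailed reads ending from P178 to P184, T137C was in 60.8% of inactive and 25.9% of active *mtr4*, 68.7% of inactive and 38.6% of active *RRP44KD rrp6L2*, 71.8% of inactive and 34.9% of active *rrp6L2*, and 61.1% of inactive and 59.9% of active Col-0. The active Col-0 background was mixed, with 50.4% and 44.4% in Col-0 and 69.0% and 75.9% in *rrp41* RRP41WT. The difference between inactive and active Exo9 over 4 backgrounds was 25.8 points (exact permutation test, p = 0.000157). It was not limited to these ends. Among reads ending at P176 and P177 it was 19.8 points (exact permutation test, p = 0.000935) and among those at P185 to P187 it was 22.4 points (exact permutation test, p = 0.000377), both added after the data were seen. Pooled over libraries, which mixes backgrounds in unequal proportions, at P178 58.0% of reads with inactive and 28.2% with active Exo9 carried T137C, and at P182 82.0% and 50% in the same order. The ends of both kinds of reads were therefore examined separately, over all positions from P157 to P200 and after the data were seen. P178 was lower with inactive Exo9 among reads with the reference base (-1.68 points, exact permutation test, adjusted p = 0.00526) and among reads with T137C (-0.918 points, adjusted p = 0.0453 in the same exact test). P180, P181 and P182 were higher in both, by 0.351, 0.239 and 0.149 points with the reference base and by 0.519, 0.472 and 0.354 points with T137C. P179 passed only with T137C (0.663 points, exact permutation test, adjusted p = 0.0446), not with the reference base (0.442 points, adjusted p = 0.157), and the difference between them was not tested. P184 was 0.0935 points higher with T137C (exact permutation test, adjusted p = 0.0485). In these tests 54.5% of 44 positions were called with the reference base, 29.5% higher and 25% lower with inactive Exo9, and 61.4% with T137C, 34.1% higher and 27.3% lower.

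Of 14811 reads whose last matching nucleotide lay from P178 to P184, 2210 were tailed (14.9%). The tailed percentage was 5.05% at P178, 21.0% at P179, 41.6% at P180, 7.38% at P181, 8.64% at P182, 20.2% at P183 and 52.9% at P184. These levels cannot be compared as such between positions. No tail began with the base that follows in the reference, and no tail had as its second base the second that follows. Such reads were counted at the next position, untailed or with a shorter tail, or were removed. A tail that starts with adenosine was therefore impossible at P178 and P182, which an A follows, and a tail that starts with AA was also impossible at P181. P179, P180, P183 and P184, the other 4 positions, allow both, and there 389, 239, 241 and 197 tails started with AA. For the same reason a P178 end with 1 added adenosine is recorded as untailed P179, and a P182 end as untailed P183. With more added adenosines, the same ends are recorded as P179 and P183 with a tail that is 1 nt shorter. How much of the untailed and of the tailed reads at P179 and P183 this makes up was not tested. Tails at P183 and P184 were long, with medians of 10 and 9 nt, and 139 and 122 of them were adenosines only and at least 6 nt long.

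With inactive Exo9, 26.6% of the reads were tailed in *mtr4*, against 19.7% with active Exo9. It was 15.7% in inactive and 10.8% in active *RRP44KD rrp6L2*, 18.2% in inactive and 9.60% in active *rrp6L2*, and 6.05% in inactive and 9.21% in active Col-0. Over 4 backgrounds the tailed percentage was 4.33 points higher with inactive Exo9 (exact permutation test, p = 0.0170, adjusted over 9 tests p = 0.0643), although Col-0 had the opposite sign. The difference depended on which positions were counted. It was 2.21 points over P179 to P183 (exact permutation test, p = 0.315), and without the 3 libraries of under 2000 reads it was 3.50 points (exact permutation test, p = 0.0942). Pooled over libraries, P183 was tailed in 32.98% of reads with inactive Exo9 (95% Wilson interval 28.4% to 37.9%) and in 15.9% with active Exo9 (13.9% to 18.2%). In the same order, P179 (23.3% and 19.5%), P182 (9.38% and 7.92%) and P184 (55.2% and 51.2%) were also higher. P178 (2.29% and 5.70%), P180 (40.7% and 42.3%) and P181 (4.83% and 10.5%) were lower. These pools mix backgrounds in unequal proportions and were not tested.

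**Figure D4:**
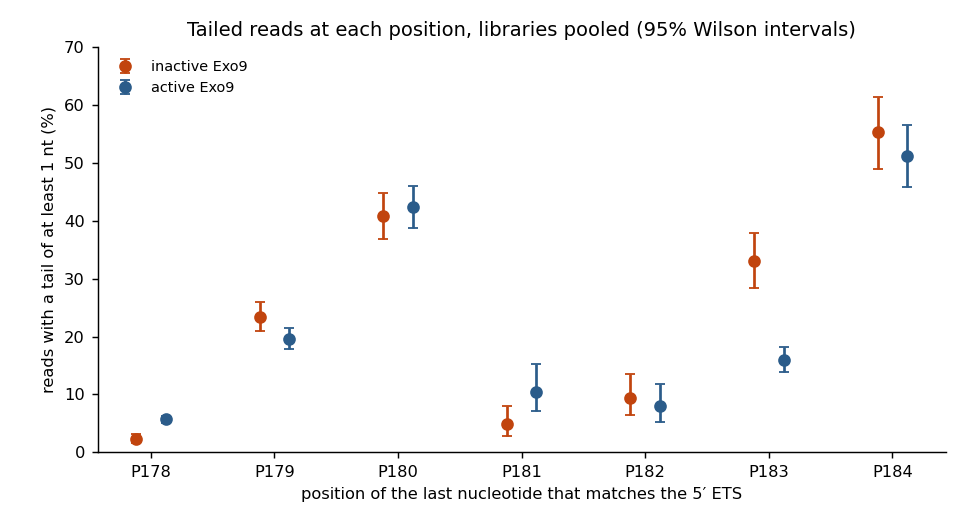
Percentage of reads with at least 1 added nucleotide (y axis) by the position of the last nucleotide that matches the 5′ ETS (x axis), pooled over 10 libraries with inactive and 16 with active Exo9, with 95% Wilson intervals that cover counting error only. P180 and P184 are above 40% in both groups, and P178, P181 and P182 are below 11%.

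Over 26 libraries, the share of the 7 positions was followed most closely by P174 (Spearman's rho 0.685, Pearson's r 0.533), P177 (0.651 and 0.653) and P172 (0.634 and 0.519) among the other positions from 140 to 200. The most negative value was that of P168 (rho -0.705). These coefficients describe libraries that share backgrounds and a common denominator.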

How the data were processed

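3′RACE-seq libraries of the 5′ ETS were analysed from 13 *Arabidopsis* genotypes with 2 replicates each. The authors removed duplicates with 15 random nucleotides of the adapter, trimmed read 2 and mapped it to the rRNA repeat, removing up to 30 nt from unmatched 3′ ends as a tail. Reads whose second tail nucleotide matched the reference were discarded by the authors, as were long tails without stretches of A or T. Some libraries were sequenced in several runs. The deposited table is not normalized and has one line per read with its encoded sequence, 3′ end, tail and tail size. The last 20 nt matched the reference in 100% of reads.

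From it, untailed reads (tail size 0) ending from P178 to P184 were taken as percentages of all untailed reads of a library, with Python 3.11.15 (scipy 1.17.1, numpy 2.4.6, matplotlib 3.10.9, pandas 2.3.3). Wilson intervals are at 95%, and a count of 0 was read as under 3 reads. RRP41Pi- and RRP41Pi-Cat- were grouped as inactive Exo9, endogenous RRP41 and RRP41WT as active Exo9. Differences of means were tested by exact two-sided permutation within backgrounds at a threshold of 0.05, with backgrounds weighted equally. The 61 positions from 140 to 200 were adjusted by Benjamini-Hochberg, and so were the 9 tests on the 7 positions together. All 7 positions are described. The 3 other positions with the highest Spearman correlation are named, and other neighbours only where set against them. P168 and T137C were chosen with their values in view. The members and lists were chosen with earlier results of these data known. The test of all positions was checked on simulated libraries with independent noise at each position, which leaves out any spread shared by positions or replicates. Alternatives were other denominators, tailed reads included, narrower bounds, deeper libraries only, each library left out and a replicate block. The division by T137C was added after seeing the data.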

Additional observations from a re-analysis of the deposited data

Results flagged for a closer look

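In 50 groups of 4 libraries (10 measures in 5 groups), 4 had a library far from the other 3, where chance alone gives about 1 in 20. *RRP44KD rrp6L2 rrp41* RRP41WT replicate 2 had 10.5% of untailed reads from P178 to P184, while the other active *RRP44KD rrp6L2* libraries had 8.40% to 8.51%. *rrp6L2 rrp41* RRP41WT replicate 2 had 11.5%, while the other active *rrp6L2* libraries had 7.95% to 8.41%. The same library had 7.85% at P178, with 4.13% to 4.56% in the others. *rrp41* RRP41WT replicate 1 had 15.9% tailed reads from P178 to P184, with 6.45% to 7.29% in the other active Col-0 libraries.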

How the results depend on the processing

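For the total over 4 backgrounds, inactive minus active Exo9 had the opposite sign as a percentage of all reads (0.155 points), with tailed reads counted (0.708), over P179 to P183 alone (1.32, exact permutation test, p = 0.00323), relative to untailed reads ending from P176 to P187 (1.02) and among reads with T137C (0.857). Leaving out P178, the position that fell, turned the total positive by construction, and the other causes were not tested. Over P179 to P183 alone, *RRP44KD rrp6L2* minus *rrp6L2* was -1.50 points (exact permutation test, p = 0.0286), *mtr4* exceeded Col-0 by 1.02 points without passing, RRP41WT minus endogenous RRP41 was -0.0569 points, the mean end changed by -0.141 nt, the tailed percentage by 2.21 points, and the changes in Col-0 and in the other backgrounds differed by -2.66 points (exact permutation test, p = 0.00952). That last difference was -1.97 points with tailed reads counted (exact permutation test, p = 0.0381). Without libraries of under 2000 reads the tailed percentage rose by 3.50 points, which did not pass. It did not pass among reads with T137C (3.304 points), nor did the mean end among reads with T137C (0.322 nt) or with the reference base (0.250 nt), where fewer reads enter.

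With the replicate number as a block, *rrp6L2* minus Col-0 (6.15 points) and *mtr4* minus Col-0 (5.28 points) had p = 0.0556, the smallest that 36 relabelings allow in this exact permutation test. Deviations between replicates varied among genotypes: over 78 pairs of genotypes they correlated between -0.703 and 0.874, and 32 pairs exceeded 0.1. The total was higher in replicate 2 in 10 of 13 genotypes. Whether a replicate number marks a growth time shared by genotypes was not tested. The block raised calls from 31 to 33 of 61 positions, and 6 of the 7 positions passed, P184 (exact permutation test, adjusted p = 0.0427) in addition to those called without it, while P183 did not (0.0524).

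Leaving out 1 library at a time gave totals between -1.27 and -0.385 points for inactive minus active Exo9 in Col-0, -0.832 and 0.325 over 4 backgrounds, 5.34 and 6.67 for *rrp6L2* minus Col-0, -0.556 and 0.767 for *RRP44KD rrp6L2* minus *rrp6L2*, 4.84 and 5.8 for *mtr4* minus Col-0, 0.135 and 0.898 for RRP41WT minus endogenous RRP41, and -1.24 and -0.498 for the change in Col-0 minus that in other backgrounds. The tailed percentage differed by 3.54 to 5.12 points, the mean end by 0.306 to 0.451 nt, and 28 to 34 positions passed. At single positions, P181 and P184 of *rrp6L2* minus Col-0 reached -0.00627 to 0.0914 and -0.0595 to 0.0338, P179, P180 and P184 of *RRP44KD rrp6L2* minus *rrp6L2* -0.176 to 0.198, -0.0137 to 0.0473 and -0.0668 to 6.98e-05, and P182 and P184 of *mtr4* minus Col-0 -0.0673 to 0.0239 and -0.0365 to 0.0544.

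Of 119 values of single positions under the other settings, 104 kept sign and side of the threshold, 4 no longer passed, 4 newly passed and 7 changed sign, none of which had passed. These were P184 of *rrp6L2* minus Col-0 (0.0338) and P182 and P184 of *mtr4* minus Col-0 (0.0239 and 0.0544) without shallow libraries, P180 of *RRP44KD rrp6L2* minus *rrp6L2* as a percentage of all reads (-0.0292) and with tailed reads (-0.0552), and P184 of *mtr4* minus Col-0 among reads ending from 140 to 200 (0.00247) and with tailed reads (0.205). Depth limits the Col-0 background most, where 15 to 229 reads ended from P178 to P184.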
